A study of Mus musculus with 4 samples.

Results

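The cells described here are the blood vessel endothelial cells of the mouse embryonic hindlimb at E13.5, E15.5 and E18.5. A cell was a member when it held at least 2 UMIs (unique molecular identifiers, each standing for a captured transcript) of Cdh5 and Pecam1 together and fewer than 3 of 6 lymphatic genes (Prox1, Mmrn1, Flt4, Reln, Lyve1 and Ccl21a). Ccl21a had to reach 3 UMIs to count and the others 1. Cdh5 encodes the endothelial adherens junction protein VE-cadherin and Pecam1 the junctional adhesion molecule CD31. The rule gave 277 members among 7318 kept cells of these 3 libraries, namely 133, 100 and 44 in order of stage. Because measured UMIs of Cdh5, Pecam1 and the lymphatic genes chose the members, levels of those genes are given below as a description only.

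Hindlimbs of C57BL/6 embryos were dissected at 4 stages from E11.5 to E18.5, and 1 droplet library (10x Genomics Chromium, 3' chemistry, v2) was made per stage. Limbs of 6 to 7 pups of a single litter were digested with collagenase and pronase, pooled, frozen, thawed and cleared of dead cells before capture. The labels name no mutation or treatment, and the embryos of all stages had the same strain and handling. A pooled litter does not show how single embryos vary. With 1 library per stage no test between stages was possible, so each value compares these libraries, and the 95% intervals in parentheses cover counting error only, not variation between embryos, litters or preparations.

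Blood vessel endothelium lines the vessels, seals them through adherens and tight junctions, and receives growth signals through VEGF receptors and the angiopoietin receptor Tek. During limb growth a plexus is extended by sprouting tip cells and is remodelled into arteries, capillaries and veins. Arterial cells depend on Notch signalling and carry the gap junction proteins of Gja4 and Gja5, venous cells carry the receptors of Aplnr and Ephb4, and capillaries take up lipid with the help of Gpihbp1, Cd36 and Fabp4.

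After removal of cells with under 200 genes or over 10% mitochondrial UMIs, the E13.5, E15.5 and E18.5 libraries kept 2816, 2598 and 1904 cells. Members made up 4.72% (3.97 to 5.57), 3.85% (3.14 to 4.66) and 2.31% (1.68 to 3.09) of those cells. The same rule picked 432 of 2640 kept cells (16.4%) at E11.5. These shares depend on how cells were released by the digestion, and less endothelium in the limb and fewer endothelial cells released cannot be told apart. Cells set aside as lymphatic numbered 4, 38 and 22. Pairs of libraries shared 8 to 15 cell barcodes, and no member's barcode was shared.

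Not all members were endothelial by other genes. Of 30 blood endothelial genes outside the rule, among them Gpihbp1, Cd93, Kdr, Tek, Emcn and Egfl7, 102, 72 and 21 members of the E13.5, E15.5 and E18.5 libraries had at least 8. Those cells, called endothelial members here, had a median of 21, 20 and 17 of the 30 genes. The remaining 31, 28 and 23 members had a median of 1 of these genes, and Cdh5 was at 0 in 25, 27 and 23 of them. They had been admitted by at most 3 UMIs of Pecam1, and 22, 25 and 16 of them carried the marker genes of another class, with epithelium the most frequent at E13.5 and E15.5 (17 and 13 cells) and epithelium and pericyte and smooth muscle at 5 cells each at E18.5. Several of their leading genes came from 1 or 2 cells, such as the mast cell protease gene Cma1 with 194 UMIs in 1 cell at E13.5, the lymphocyte chemokine gene Ccl5 with 115 UMIs in 2 cells at E15.5, and the myeloid gene Mpo with 162 UMIs in 1 cell at E18.5. By these genes the label held for 76.7%, 72.0% and 47.7% of members, and endothelial members carried 70.5%, 65.6% and 34.0% of the members' UMIs. Stage changes and classes are described in the endothelial members, with counts over all members beside them. The limit of 8 genes was set after these values had been seen.

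**Figure D1:**
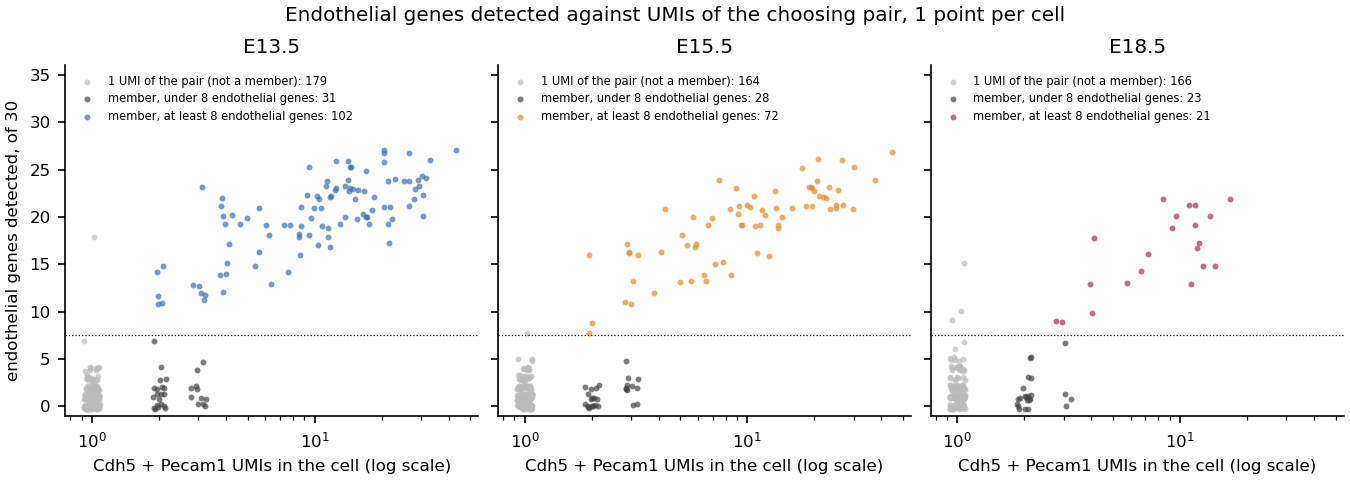
Number of 30 blood endothelial genes detected in each cell (vertical axis) against its UMIs of Cdh5 and Pecam1 together (horizontal axis, log scale), 1 panel per library, points jittered. Grey points are cells with 1 UMI, dark points members with under 8 genes and coloured points the 102, 72 and 21 endothelial members; the dotted line marks the limit of 8 genes.

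At the edge of the rule, cells with exactly 2 UMIs of the pair numbered 25, 20 and 19, and 5, 3 and 0 of them had 8 or more endothelial genes. Just outside it, of 179, 164 and 166 cells with 1 UMI, 1, 1 and 3 reached 8 genes. All 91, 62 and 19 members with over 3 UMIs of the pair reached 8 genes. Pecam1 alone was found with at least 2 UMIs in 6.50%, 7.56% and 2.16% of epithelium-marked cells, against 0.406%, 0.604% and 1.10% of the kept cells that were neither epithelium-marked nor endothelial.

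Endothelial members held a median of 9602, 8068.5 and 5287 UMIs at E13.5, E15.5 and E18.5, while the other members held 14833, 10503 and 8777. In all, 1074936, 636463 and 118359 UMIs of endothelial members entered the levels below, so the E18.5 levels rest on the fewest cells and UMIs. Levels are CPM, counts scaled to 1000000 of the cells' summed UMIs outside cartilage, globin and mitochondrially encoded genes, and other kept cells means cells outside both members and lymphatic cells unless stated. Marker genes of other classes were low but differed between libraries. The 10 leukocyte markers summed to 63.3, 62.8 and 777 CPM in endothelial members against 256, 425 and 1770 CPM in other kept cells, and 57 of the 92 UMIs at E18.5 lay in 1 cell. Ptprc, Tyrobp, Cd53, Rac2 and Itgb2 were at 0 at E13.5, and all 10 were detected at E18.5. The 8 pericyte and smooth muscle markers summed to 22.3, 28.3 and 177 CPM against 154, 237 and 1777 CPM, with Pdgfrb, Abcc9, Cspg4 and Myh11 at 0 at E18.5. The 8 fibroblast markers summed to 276, 95.8 and 296 CPM against 803, 1287 and 3585 CPM, with Prrx1, Twist2, Osr1 and Tnmd at 0 at E18.5. Cartilage transcripts, left out as free RNA, stood at 3461, 1830 and 1521 CPM against 31080, 38947 and 14326 CPM. In endothelial members 1 cell held 960 of the 3720 cartilage UMIs at E13.5, and 1 cell held 338 of 1165 at E15.5. The part of these markers in the stage differences was not tested, except where a value is given.

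Promoter sequence is shown for the genes of highest rank over other cells that had a single promoter in the RefSeq table (GRCm38.p6), because such genes mark the members in every library. Of the 20 genes named by rank, 9 matched the table, with 12 promoters. The 250 bases before the transcription start are printed, and capitals mark GGAA and its reverse complement TTCC, the core letters bound by ETS factors such as Erg and Fli1 of endothelium. Tek lies at chr4:94739039-94739288 on the plus strand, Tie1 at chr4:118489850-118490099 on the minus strand and Myct1 at chr10:5593478-5593727 on the plus strand.
Tek: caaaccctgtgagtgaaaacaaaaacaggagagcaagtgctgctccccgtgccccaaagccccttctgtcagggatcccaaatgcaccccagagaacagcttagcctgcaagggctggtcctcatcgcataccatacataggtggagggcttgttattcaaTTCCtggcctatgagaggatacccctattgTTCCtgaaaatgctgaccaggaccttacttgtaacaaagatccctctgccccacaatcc
Tie1: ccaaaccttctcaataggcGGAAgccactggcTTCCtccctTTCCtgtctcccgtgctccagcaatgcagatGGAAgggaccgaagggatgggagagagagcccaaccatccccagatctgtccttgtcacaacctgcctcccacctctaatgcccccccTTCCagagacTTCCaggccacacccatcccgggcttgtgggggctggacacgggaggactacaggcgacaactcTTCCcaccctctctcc
Myct1: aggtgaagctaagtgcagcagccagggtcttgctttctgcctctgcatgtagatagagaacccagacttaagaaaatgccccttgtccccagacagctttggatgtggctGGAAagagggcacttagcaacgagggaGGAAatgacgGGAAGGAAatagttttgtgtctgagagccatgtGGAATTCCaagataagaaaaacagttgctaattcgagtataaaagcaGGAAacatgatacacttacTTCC
The Tek window held 2 matches, the Tie1 window 7 and the Myct1 window 8, counting overlapping matches on either strand. Of 32851 promoters in the table, 93.4% held at least 1 match, 76.8% at least 2, 3.82% at least 7 and 1.45% at least 8. The 12 promoters of named genes held a median of 3.0 matches, the same as all promoters, with a range of 0 to 8. A match describes the letters and is not a binding site.

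Within each library, genes were called higher in members when their CPM was at least 4-fold that of all other kept cells, lymphatic cells included, with the whole interval above 1 and at least 20 UMIs. That held for 390 of 6865 genes (5.68%), 282 of 5205 (5.42%) and 65 of 2317 (2.81%) in order of stage. For the endothelial members against the other kept cells the counts were 423 of 5548 (7.62%), 349 of 3880 (8.99%) and 98 of 881 (11.1%). Of 2241 genes compared in all 3 libraries in members, 32 were called in each. In endothelial members 53 were called in each library, of only 843 genes compared in all 3. Members were chosen on Cdh5 and Pecam1, and endothelial members also on detection of blood endothelial genes outside the rule. The counts for endothelial members include such genes, among them Cd93, Tek, Emcn and Egfl7. These differences therefore describe the chosen cells and are not a test.

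The 20 genes with the largest smallest-of-3 ratio in members were Ptprb, Sox17, Icam2, Cdh5, Pecam1, Tek, Tie1, Myct1, Emcn, Cd93, Plvap, Cldn5, Lmo2, Rasip1, Mmrn2, Ecscr, Egfl7, Gata2, Gja4 and Gpr116. Ptprb, the receptor phosphatase VE-PTP that opposes Tek signalling, was 116-fold (51.2 to 307), 64.6-fold (31.8 to 139) and 108-fold (54.4 to 230) higher in members at E13.5, E15.5 and E18.5. Sox17, an arterial SoxF transcription factor, was 356-fold, 54.3-fold and 58.1-fold higher in members. In endothelial members against cells outside the members and lymphatics, Sox17 was 817-fold, 1250-fold and 591-fold higher, on 222, 151 and 31 UMIs. Emcn, a sialomucin of capillary and venous endothelium, was 340-fold, 244-fold and 19.9-fold higher in members. Egfl7, an endothelial matrix protein, had the lower ratios of 16.6, 11.6 and 8.42. Gata2, an endothelial and blood transcription factor, was 30.7-fold, 7.69-fold and 18.8-fold higher. For each of the 20 genes except Mmrn2, an endothelial matrix glycoprotein (16.2 against 23.6), the ratio in members was lower at E18.5 than at E13.5. The share of endothelial members was also smaller at E18.5. Lymphatic cells, included in the other cells here, numbered 4 at E13.5 and 22 at E18.5. In endothelial members against cells outside the members and lymphatics, Ptprb, Tie1, Myct1, Mmrn2, Egfl7 and Gata2 had higher ratios at E18.5 than at E13.5. The other named genes had lower ones. Ptprb went from 230 to 419 and Emcn from 641 to 66.7. Gpr116 fell short of 20 UMIs in endothelial members at E18.5 (19 UMIs).

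From E13.5 to E15.5 few genes of the lists were called in endothelial members. None of 29 pan-endothelial genes, 27 endothelial transcription factors, 10 VEGF and angiopoietin genes or 9 Notch genes was called, where a call needed a 2-fold difference, an interval that left out 1 and a total of 20 UMIs or more over both libraries. The endothelial members were themselves chosen by detection of the pan-endothelial genes, so nothing is read from that list's count. Called higher at E15.5 on the endothelial lists were Fabp4, Esm1, Edn1, Ednrb, Fbln5, Ltbp4 and Stmn2, and on the list of proteases and IGF-binding proteins Igfbp7 and Htra1. Called lower were Il6st on the venous list, Ung on the S phase list, and Dlk1, an imprinted Notch-like ligand, and Nnat on the imprinted list. Krt14 of the epithelial markers and 3 fibroblast markers were also lower. At E13.5, 70 of the 88 UMIs of the 8 epithelial markers in endothelial members lay in 1 cell. Without centring, described next, Edn1 was not called and Hey1, a Notch target, was called lower (0.494).

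Counts are given relative to the median gene, whose log2 ratio was -0.06 from E13.5 to E15.5 and -0.15 from E15.5 to E18.5 in endothelial members, so the median over all genes compared is 0 on that scale. On it, 89 of 6910 genes (1.29%) were called higher and 113 (1.64%) lower at E15.5, against 67 and 142 without this centring. Over all members, without centring, 114 of 8345 genes (1.37%) were higher and 194 (2.32%) lower, and with centring 151 and 136. Printed folds below are relative to the median gene and in endothelial members, and CPM levels are not centred.

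Cdh5, on which the cells were chosen, stood at 739, 850 and 634 CPM at E13.5, E15.5 and E18.5, against 0.664, 0.645 and 0.591 CPM in other kept cells. Pecam1 stood at 528, 608 and 997 CPM, against 4.99, 5.62 and 11.8 CPM. Neither was called between neighbouring stages.

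Fabp4, a fatty acid carrier of capillary endothelium and fat cells, went from 77.2 to 270 CPM, 3.65-fold higher (2.79 to 4.80) at E15.5, and stood at 220 CPM at E18.5. Its UMIs lay in 17.6% and 41.7% of endothelial members (10.7% and 30.2% with each cell thinned to 3000 UMIs), against 0.165% and 0.225% of other kept cells thinned alike. A single cell held 43.4% of its UMIs at E13.5. Gpihbp1, which carries lipoprotein lipase to the capillary lumen, was at 207 and 311 CPM, a ratio of 1.56 (1.28 to 1.90) that was not called, and by the same rules at 19.3 CPM in the E11.5 library. Of 11 capillary lipid genes compared, Fabp4 was the 1 called, with a list median of 0.50 on the log2 scale.

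Esm1, a proteoglycan secreted by tip cells, went from 29.8 to 64.4 CPM, 2.25-fold (1.39 to 3.70), and was the 1 of 21 tip genes called. Among 17 genes of vascular tone and flow, Edn1, the vasoconstrictor peptide endothelin, was 2.01-fold (1.17 to 3.47) and its receptor Ednrb 3.21-fold (1.72 to 6.18) higher. Igfbp7, a secreted IGF-binding protein of vessels, went from 291 to 610 CPM, 2.18-fold (1.88 to 2.54).

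The 3 of 15 arterial genes called were Fbln5, an elastic fibre protein (21.4 to 61.3 CPM, 2.98-fold), Ltbp4, a latent TGF-beta binding protein of elastic fibres (7.44 to 20.4 CPM, 2.86-fold), and Stmn2 (15.8 to 56.6 CPM, 3.73-fold). They rest on few cells: 61.5% of the Fbln5 UMIs and 55.6% of the Stmn2 UMIs at E15.5 were in 1 cell. Gkn3 was 6.16-fold higher, from 1 cell at E13.5 and 2 at E15.5. Lower at E15.5 were Dlk1 (220 to 73.8 CPM, 2.85-fold, 2.08 to 3.99), Prex1, a Rac exchange factor (31.6 to 9.43 CPM, 3.22-fold), and the RNase P RNA Rpph1 (16.7 to 3.14 CPM, 5.11-fold). Dlk1 was at 1761 and 2041 CPM in other kept cells, and the 3 fibroblast markers Prrx1, Dcn and Lum were also lower in endothelial members at E15.5, with 65.5%, 74.5% and 64.6% of their E13.5 UMIs in 1 cell each. The part of fibroblast RNA in the Dlk1 difference was not tested. Dmkn and Ccl21a, which ranked among the changed genes over all members, had 0 and 3 UMIs and 0 and 1 UMIs in endothelial members.

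Classes of cells within the endothelium were then counted. Endothelial members with at least 2 of Gja4, Gja5, Hey1, Sox17 and Bmx were called arterial-marked. The E13.5 library had 23 of 102 (22.5%, 14.9 to 31.9), the E15.5 library 11 of 72 (15.3%, 7.88 to 25.7) and the E18.5 library 14 of 21 (66.7%, 43.0 to 85.4). With each cell thinned to 3000 UMIs, which left out 3 shallower cells at E18.5, the numbers were 8 of 102 (7.84%), 4 of 72 (5.56%) and 11 of 18 (61.1%, 35.7 to 82.7). The E18.5 share was the highest at either depth, and its interval lay above those of the other libraries. A further 59, 36 and 6 cells had exactly 1 arterial marker, and 15, 7 and 4 of the arterial-marked cells had exactly 2.

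Tip-marked cells, with at least 2 of Esm1, Apln, Angpt2, Pgf and Kcne3, numbered 21 of 102 (20.6%), 12 of 72 (16.7%) and 0 of 21, which allows a share of up to 14.3% (3 counts of the total); the exact binomial interval, drawn in the plot of classes, ends at 16.1%. After thinning they numbered 4 of 102 (3.92%), 5 of 72 (6.94%) and 0 of 18. Tip-marked cells were deeper than the rest, with medians of 14347 and 10948 UMIs against 9177 and 7534.5, and 8 and 4 of them were also arterial-marked. Cells with at least 5 of 18 G2/M genes numbered 45 of 102 (44.1%), 37 of 72 (51.4%) and 2 of 21 (9.52%, 1.17 to 30.4), and after thinning 35 of 102 (34.3%), 29 of 72 (40.3%) and 2 of 18 (11.1%). Both such cells at E18.5 were arterial-marked, and 0 of the 7 others had 5 G2/M genes, which allows a share of up to 42.9%.

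**Figure D2:**
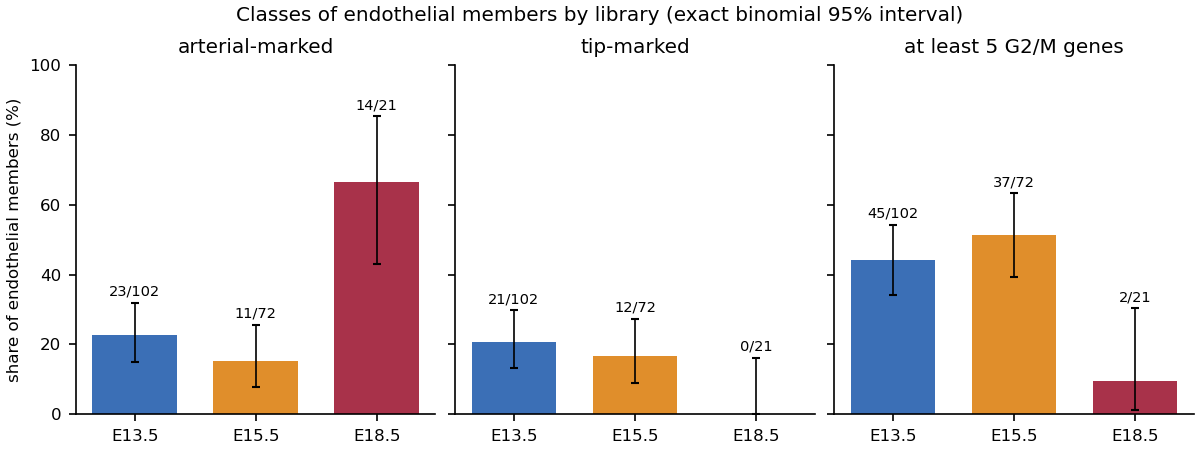
Share of endothelial members (vertical axis, percent) that were arterial-marked, tip-marked or held at least 5 G2/M genes, by library, without thinning; error bars are exact binomial 95% intervals and the numbers above give cells. Arterial-marked cells made up 14 of 21 at E18.5 against 23 of 102 and 11 of 72 before, and tip-marked cells 0 of 21.

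The E18.5 library differed from the E15.5 library far more than that did from E13.5. By list, 13 of 16 arterial genes, 8 of 10 MHC class I and interferon genes and 5 of 12 BMP and TGF-beta genes were called higher at E18.5 and 0 of them lower, while 9 of 17 G2/M genes were called lower and 0 higher. Of 18 tip genes 9 were lower and 4 higher. Kdr, Aplnr, Plxnd1, Col4a1 and Col4a2 were lower. Over endothelial members 524 of 4449 genes (11.8%) were called higher and 255 (5.73%) lower relative to the median gene, and 445 and 364 without centring. Over all members the counts were 416 of 6257 higher (6.65%) and 497 lower (7.94%) without centring, and 491 and 381 with it. The 21 cells at E18.5 were 66.7% arterial-marked. Differences are therefore also given within arterial-marked cells (11 and 14 cells) and within the rest (61 and 7 cells). Arterial-marked cells at E15.5 were deeper than the rest (medians of 12474 and 7582 UMIs), while those at E18.5 were not (5108.5 and 5736). Exactly 2 markers were found in 7 of the 11 and 4 of the 14 marked cells. After thinning, 4 of 72 cells had the mark at E15.5, against 11 of 18 at E18.5. Whether the mark picks like cells at each stage was not tested, so these ratios do not hold composition fixed.

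**Figure D3:**
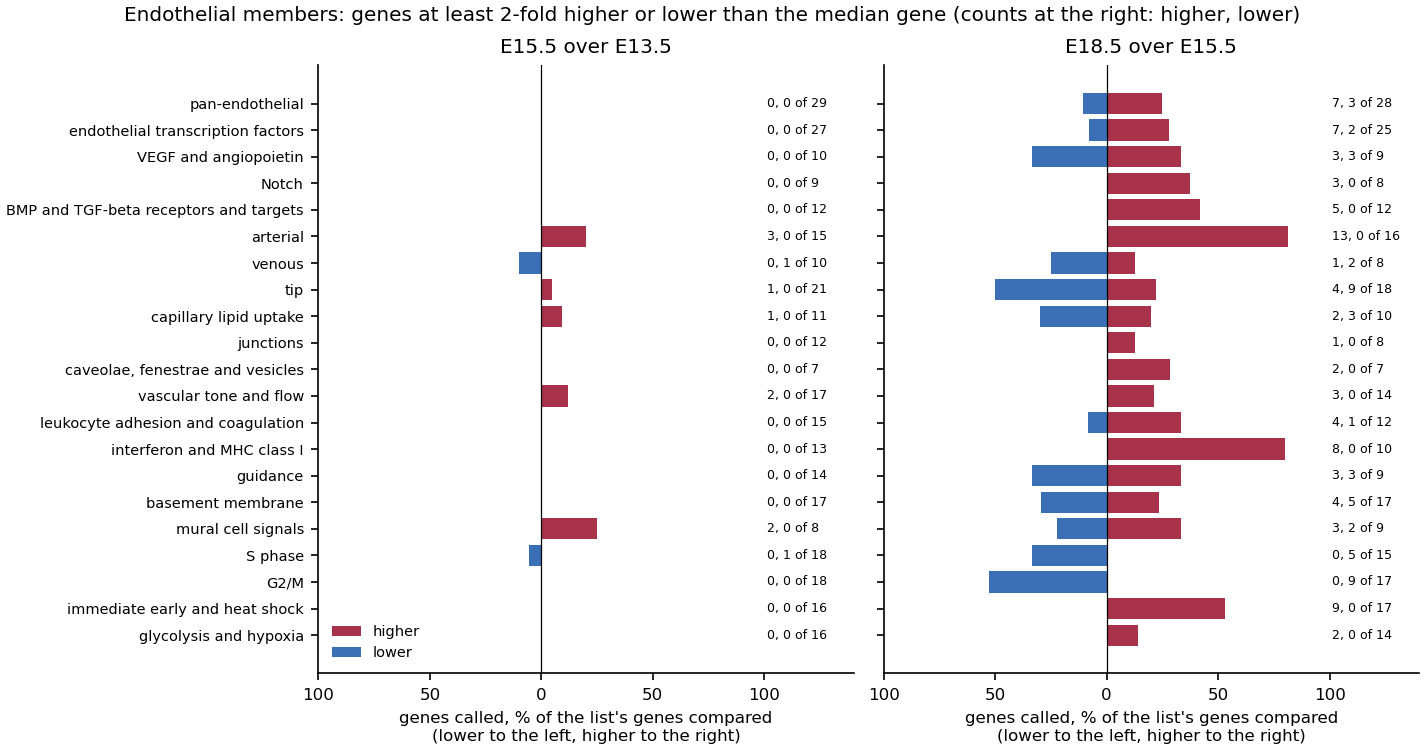
Genes called per list in endothelial members, as percent of the list's genes compared, higher to the right and lower to the left; each row is a gene list, the left panel compares E15.5 with E13.5 and the right panel E18.5 with E15.5. Counts stand at the right of each row, for example 13 higher and 0 lower of 16 arterial genes in the right panel, against 11.8% and 5.73% of all genes.

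**Figure D4:**
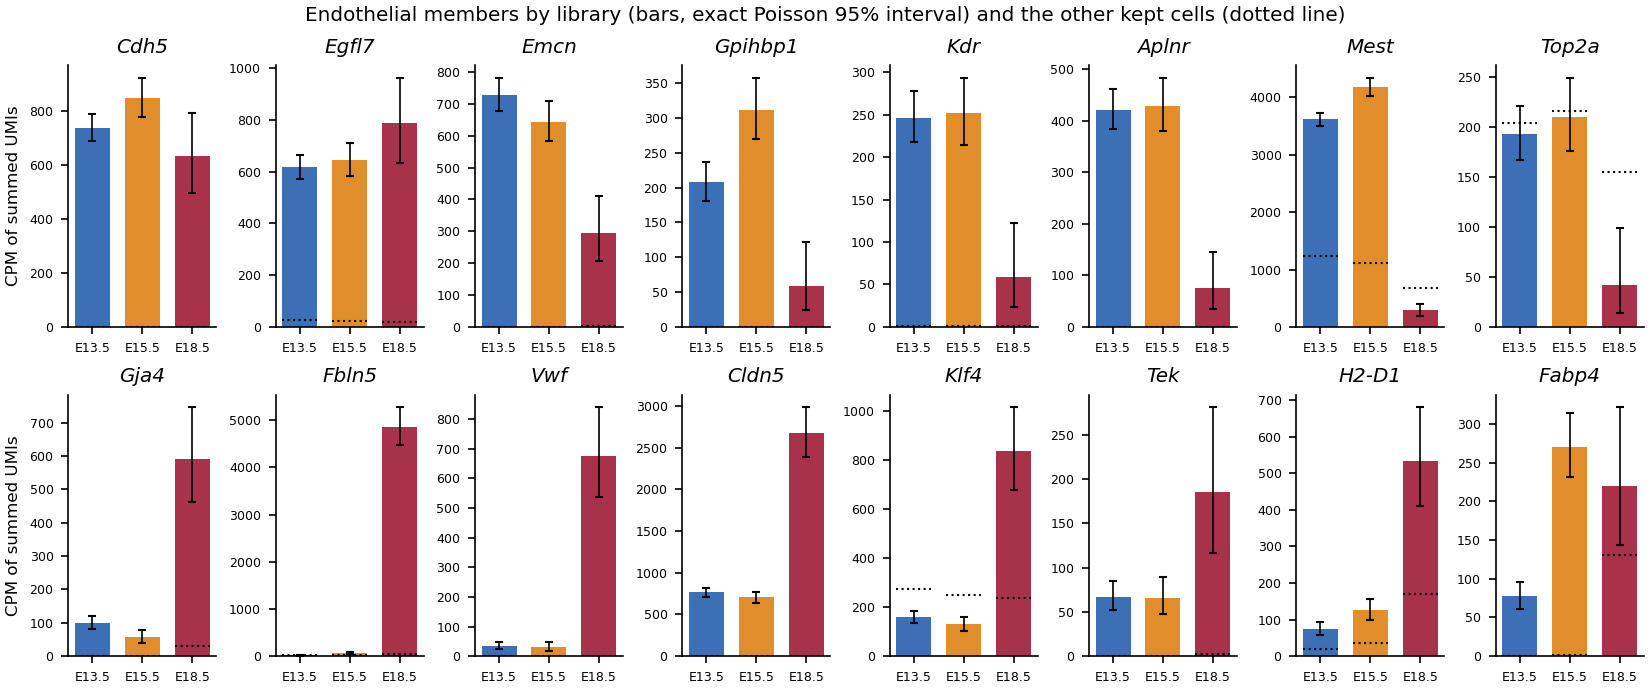
Levels of 16 genes in endothelial members by library, in CPM of summed UMIs (vertical axes start at 0 and differ between panels). Bars are 1 library each with exact Poisson 95% intervals, and dotted lines are the other kept cells; Kdr, Aplnr and Mest were lowest at E18.5, while Gja4, Fbln5, Vwf, Cldn5, Klf4, Tek and H2-D1 were highest there.

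Of 16 arterial genes compared, 13 were called higher and 0 lower, and the list's median was 3.24 on the log2 scale. Gja4 and Gja5, the arterial connexins used to mark cells, stood at 100, 56.6 and 591 CPM and at 16.7, 28.3 and 355 CPM. Gja4 was also at 31.3 CPM in other kept cells at E18.5, against 0.379 and 0.683 before. The Notch ligand gene Jag1 went from 9.43 to 161 CPM, 18.9-fold higher (7.25 to 57.8), on 6 and 19 UMIs, and the ligand Dll4 from 59.7 to 127 CPM, 2.35-fold (1.20 to 4.38). The Notch target Hey1 was 6.46-fold higher (2.72 to 15.5). Efnb2, the arterial ephrin, was 6.19-fold (3.48 to 11.04) and Vegfc 7.75-fold (3.14 to 19.7) higher. Dhh, the hedgehog ligand of endothelium and Schwann cells, went from 3 to 17 UMIs, 33.8-fold (9.77 to 180). Of 8 Notch genes 3 were called higher and none lower, while Notch1 (1.72, 0.852 to 3.25), Notch4 and Hes1 were not called. Those 3, Dll4, Jag1 and Hey1, were also counted on the arterial list, and Dll4 on the tip list. Some genes stand on several lists, so counts of different lists are not separate results.

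Fbln5, Fbln2, Ltbp4 and Eln, genes of elastic fibres, had large folds. Fbln5 (chromosome 12, 101746565 to 101819055, GRCm38) stood at 21.4, 61.3 and 4867 CPM, 88.1-fold higher at E18.5 than at E15.5 (63.6 to 125), against 29.99, 28.8 and 35.7 CPM in other kept cells. Its E18.5 UMIs lay in 16 of 21 cells, the top cell holding 14.8%. Fbln2 went from 51.8 to 1901 CPM, 40.7-fold (28.1 to 60.5), and Ltbp4 from 20.4 to 735 CPM, 39.9-fold (22.2 to 77.9). Mgp, a matrix inhibitor of calcification and of BMP signalling, went from 137 to 5517 CPM, 44.8-fold (35.7 to 56.6), against 637 and 475 CPM in other kept cells. Eln, encoding tropoelastin, had 0, 2 and 20 UMIs, a ratio of 59.6 (14.5 to 526). The secreted protease gene Htra1 was 46.8-fold (28.9 to 79.9) and Stmn2 16.9-fold (11.5 to 25.4) higher. Among these genes, Fbln5, Fbln2, Mgp and Htra1 were higher within both classes of cells. Fbln5 was 38.9-fold higher within arterial-marked cells and 31.5-fold within the rest, Fbln2 17.9-fold and 18.9-fold, Mgp 21.5-fold and 15.0-fold, and Htra1 23.9-fold and 29.1-fold.

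**Figure D5:**
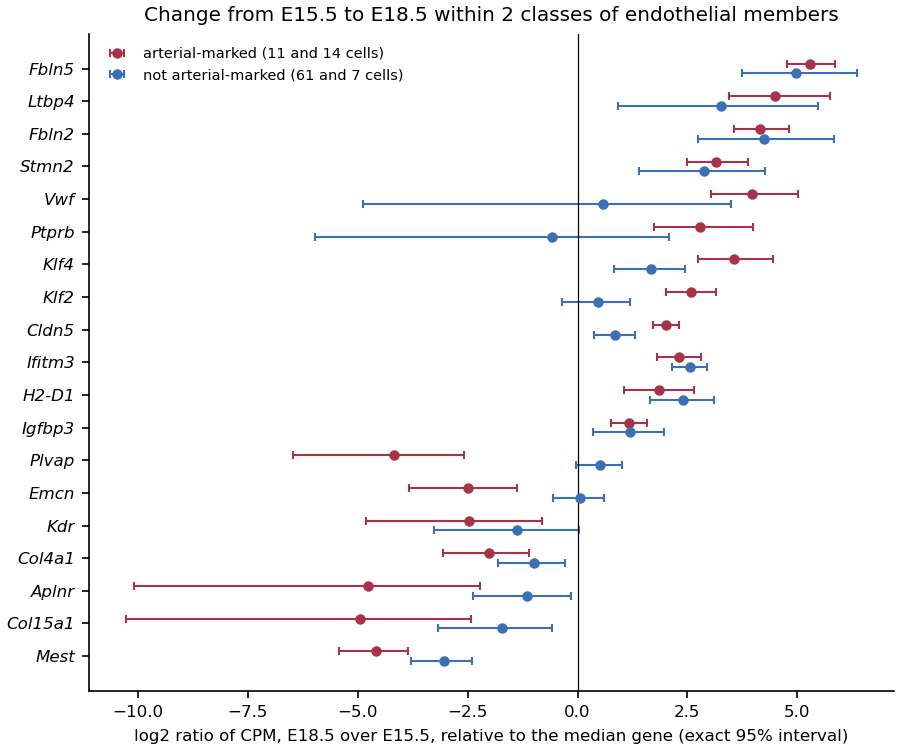
Log2 ratio of CPM at E18.5 over E15.5, relative to the median gene (horizontal axis), for 19 genes (rows) within arterial-marked cells (red, 11 and 14 cells) and within the other endothelial members (blue, 61 and 7 cells); error bars are exact 95% intervals. Fbln5, Fbln2, Stmn2, Ifitm3 and H2-D1 lie to the right and Mest to the left in both classes, while Ptprb, Plvap and Emcn differ in position between them.

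Of 28 pan-endothelial genes 7 were called higher (She, S1pr1, Arhgap29, Tek, Ptprb, Mmrn2 and Cldn5) and 3 lower (Kdr, Robo4 and Gpihbp1), with a list median of 0.39. Detection of genes on this list chose the endothelial members, so nothing is read from its count or median. Folds of its genes, here and below, describe the chosen cells only. Cldn5, the main endothelial tight junction protein (chromosome 16, 18776847 to 18778262), stood at 765, 707 and 2678 CPM, 4.20-fold higher at E18.5 (3.63 to 4.86). It was 4.03-fold higher within arterial-marked cells and 1.82-fold within the rest, and it was the 1 of 8 junction genes called. Esam, another junction molecule, was at a ratio of 0.973 (0.718 to 1.30). Ptprb went from 44.0 to 279 CPM, 7.03-fold (4.12 to 12.1), with ratios of 6.95 within arterial-marked cells and 0.667 within the rest. Tek, the angiopoietin receptor, went from 66.0 to 186 CPM, 3.12-fold (1.78 to 5.35), with ratios of 4.34 and 0.750. The ratios of both genes were thus above 1 in arterial-marked cells only, and the rest held 1 UMI of Ptprb and 2 of Tek at E18.5. Egfl7 (1.35), Cd93 (1.03) and Sox17 (1.22) were not called.

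Of 10 capillary lipid genes 3 were called lower (Tcf15, Meox2 and Gpihbp1) and 2 higher (Aqp1 and Sgk1), and neither of the higher calls held without centring. Gpihbp1 (chromosome 15, 75596628 to 75599481) went from 311 to 59.1 CPM, 4.74-fold lower (2.26 to 11.95), on 7 UMIs in 3 cells at E18.5. Its UMIs were in 68.6%, 72.2% and 14.3% of endothelial members, and in 40.4%, 49.0% and 9.85% after thinning, against 0.120%, 0.107% and 0.0691% of other kept cells. All 7 UMIs lay in cells without the arterial mark, where Gpihbp1 stood at 148 CPM against 294 CPM at E15.5. Tcf15, a transcription factor of fatty acid handling endothelium, had 79, 28 and 0 UMIs, at least 1.57-fold lower. Its partner Meox2 had 77, 62 and 1 UMIs, a ratio of 0.0962 (0.0024 to 0.556). Emcn stood at 729, 644 and 296 CPM and Plvap, the fenestral diaphragm protein, at 598, 663 and 330 CPM, ratios of 0.509 and 0.551 that were not called, while without centring 0.459 and 0.497 were called lower. In cells without the arterial mark these ratios were 1.03 for Emcn and 1.42 for Plvap, and within arterial-marked cells 0.179 and 0.0557. Fabp4 was at a ratio of 0.901 over all, 0.0679 within arterial-marked cells and 2.14 within the rest.

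Kdr, the main VEGF-A receptor (chromosome 5, 75932827 to 75978458), stood at 247, 251 and 59.1 CPM, 3.83-fold lower at E18.5 than at E15.5 (1.82 to 9.69), with ratios of 0.181 within arterial-marked cells and 0.387 within the rest. Its E18.5 level and both class ratios rest on few UMIs. After thinning, Kdr was found in 47.5%, 48.6% and 12.3% of endothelial members. Flt1, the VEGF receptor that also acts as a decoy, stood at 216, 207 and 245 CPM and was not called. Flt4, the VEGF-C receptor that the rule used, had 53, 41 and 0 UMIs, at least 2.29-fold lower. Aplnr, the apelin receptor of venous and sprouting endothelium, went from 429 to 76.0 CPM, 5.09-fold lower (2.64 to 11.2), and its ligand Apln from 49 UMIs to 1. Of 18 tip genes 9 were lower and 4 higher (Dll4, Plod1, Mcam and Igfbp3, with Mcam at 1.84 and not called without centring), with a list median of -1.35. Esm1 and the potassium channel subunit Kcne3 had 41 and 49 UMIs at E15.5 and 0 at E18.5, at least 2.29-fold and 2.74-fold lower. Plxnd1, the semaphorin receptor of vessels, went from 415 to 135 CPM, 2.77-fold lower (1.67 to 4.91). Robo4 had 88 and 1 UMIs and Nrp2 68 and 3 UMIs.

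Basement membrane genes split, with 4 of 17 higher and 5 lower. Of those lower, Col4a1, Col4a2 and Nid2 were also counted on the tip list. Col4a1 went from 753 to 228 CPM, 2.98-fold lower (2.02 to 4.56), Col4a2 from 518 to 177 CPM, 2.64-fold lower (1.70 to 4.31), and Col15a1 from 478 to 59.1 CPM, 7.28-fold lower (3.49 to 18.3). The Col15a1 level at E18.5 rests on few UMIs. In other kept cells Col4a1 went the other way, from 27.6 to 374 CPM. Fn1, fibronectin, went from 112 to 887 CPM, 8.82-fold higher (6.46 to 12.1), and Sparcl1 from 672 to 1774 CPM, 2.93-fold (2.47 to 3.46). Col18a1, Lama4 and Hspg2 were not called.

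Klf2 and Klf4, transcription factors induced by laminar flow, stood at 340, 291 and 1022 CPM and at 159, 130 and 836 CPM. Klf2 was 3.90-fold higher at E18.5 (3.08 to 4.93), 5.94-fold within arterial-marked cells and 1.39-fold within the rest. Klf4 was 7.11-fold higher (5.26 to 9.64), with 11.7-fold and 3.18-fold in the classes. Both also respond to cell handling, and immediate early and heat shock genes were higher too, 9 of 17 with a list median of 1.13; their sum was 3814, 3416 and 6083 CPM against 6436, 5616 and 7800 CPM in other kept cells. Fos was 2.31-fold (1.59 to 3.31) and Jun 2.18-fold (1.62 to 2.90) higher, Jun at 1.97 and not called without centring. The part of dissociation in the Klf genes was not tested. Ace, angiotensin-converting enzyme, had 3, 0 and 37 UMIs, the last in 16 of 21 cells at 313 CPM, at least 73.5-fold higher than at E15.5. Vwf, von Willebrand factor, stood at 33.5, 29.9 and 676 CPM, 25.1-fold higher (15.1 to 43.9), with 15.6-fold within arterial-marked cells, while the rest held 8 and 1 UMIs at E15.5 and E18.5. Vwf was found in 9.53%, 6.48% and 65.0% of thinned endothelial members, against 0.227%, 0.318% and 0.309% of other kept cells. Madcam1, an addressin for lymphocytes, had 112, 57 and 0 UMIs, at least 3.19-fold lower. Nos3 (1.91, 0.744 to 4.36) was not called.

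Of 25 endothelial transcription factors 7 were higher (Lmo2, Mecom, Klf4, Gata2, Klf2, Foxc1 and Epas1) and 2 lower (Tcf15 and Meox2). Gata2 went from 69.1 to 262 CPM, 4.20-fold (2.56 to 6.80), and was higher in both classes (3.72 and 2.80). Epas1, the hypoxia factor HIF-2alpha of endothelium, went from 84.8 to 313 CPM, 4.09-fold (2.61 to 6.32). Erg, Sox7 and Sox18 were not called, on 5, 16 and 4 UMIs at E18.5. Nr2f2, the venous factor, was at 57.7, 44.0 and 42.2 CPM, with 80% of its 5 UMIs at E18.5 in 1 cell. Of 12 BMP and TGF-beta genes 5 were higher and none lower, with a list median of 0.89. Bmp4 was 8.75-fold (4.34 to 18.1), the inhibitory Smad6 11.9-fold (4.82 to 32.2) and Smad7 6.29-fold (3.13 to 12.7) higher, and the targets Id1 2.63-fold (1.45 to 4.62) and Id2 5.32-fold (3.76 to 7.51) higher. In cells without the arterial mark Smad7 had 12 and 1 UMIs, a ratio of 0.883 without centring, so its direction was not the same there. The receptors Eng (0.669) and Acvrl1 (1.40) were not called.

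Of 10 MHC class I and interferon-induced genes compared 8 were called higher and none lower, with a list median of 1.91. H2-D1, an MHC class I heavy chain, stood at 74.4, 126 and 532 CPM, 4.70-fold higher at E18.5 (3.32 to 6.61), with 3.59-fold within arterial-marked cells and 5.26-fold within the rest. Ifitm3 stood at 230, 336 and 1656 CPM, 5.46-fold (4.48 to 6.66), in all 21 cells at E18.5. B2m was 2.99-fold (2.42 to 3.68) and Ly6e 2.49-fold (1.73 to 3.55) higher. Other kept cells also went up, from 36.9 to 170 CPM for H2-D1 and from 80.4 to 548 CPM for Ifitm3, so the direction was the same outside the endothelium. Reads of H2-D1 and H2-K1 can be split or lost between near-identical class I genes. The call of Cd74, an MHC class II chaperone, came from 1 cell with 99.4% of its 319 UMIs.

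Of 17 G2/M genes 9 were lower and none higher (list median -1.95), and of 15 S phase genes 5 were lower and none higher (-1.15). Top2a stood at 193, 211 and 42.2 CPM, 4.49-fold lower at E18.5 (1.88 to 14.1), while other kept cells were at 204, 216 and 155 CPM. Cdk1 went from 178 to 25.3 CPM, 6.32-fold lower (2.11 to 31.1). The E18.5 levels of Top2a and Cdk1 in endothelial members rest on few UMIs. Mest, an imprinted gene of fetal growth (chromosome 6, 30723547 to 30748465), stood at 3616, 4182 and 287 CPM, 13.1-fold lower (9.37 to 19.001). It was found in 102 of 102, 72 of 72 and 11 of 21 endothelial members and was lower in both classes, with ratios of 0.0418 within arterial-marked cells and 0.121 within the rest. Mest in other kept cells went from 1229 and 1117 to 675 CPM. Of 11 imprinted growth genes compared, Mest was the 1 called lower and Igf2 the 1 called higher, and Peg10, an imprinted gene on another list, was also lower (66 and 1 UMIs). Igf2 was 2.04-fold higher (1.63 to 2.53) and 1.84-fold, without a call, when not centred, H19 stood at 2224, 2288 and 3963 CPM without a call, and Peg3 was not called.

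Within libraries, arterial-marked cells were compared with the other endothelial members, leaving out the 5 marking genes. Over the 3 libraries 193 of 7171 genes (2.69%) were at least 2-fold higher and above 1 in each library, and 393 of 8793 (4.47%) over all members. Fbln5 was 6.10-fold (2.43 to 16.6), 14.2-fold (6.37 to 35.7) and 17.5-fold (11.4 to 28.5) higher in arterial-marked cells at E13.5, E15.5 and E18.5. Igfbp3 was 4.79-fold, 4.11-fold and 4.06-fold higher, and Vegfc 6.51-fold, 8.53-fold and 7.96-fold. Efnb2 was 3.82-fold (2.11 to 6.98), 6.90-fold (2.91 to 17.6) and 1.58-fold (0.658 to 4.16). Gkn3 had 8, 28 and 67 UMIs in arterial-marked cells against 0, 0 and 2 in the others. Mgp was 1.54-fold (0.991 to 2.34), 9.59-fold (5.91 to 16.1) and 13.8-fold (9.55 to 20.6), and Fbln2 1.22-fold (0.499 to 2.72), 13.6-fold (5.74 to 37.0) and 12.9-fold (7.07 to 26.2), so their intervals at E13.5 included 1. Vwf likewise was at 0.930 (0.366 to 2.09), 5.02 (1.84 to 14.4) and 52.4, the last on 79 UMIs against 1. Nr2f2 had 10, 1 and 0 UMIs in arterial-marked cells against 52, 27 and 5 in the others.

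At E13.5 and E15.5, the libraries with tip-marked cells, 96 of 6907 genes (1.39%) were called in endothelial members and 233 of 8342 (2.79%) over all members. Igfbp3 was 1.94-fold (1.60 to 2.34) and 3.91-fold (2.91 to 5.26) higher in tip-marked cells, and the phosphatase gene Ptp4a3 2.37-fold (1.80 to 3.13) and 2.44-fold (1.60 to 3.69). Fhl2 was 7.36-fold (3.13 to 19.2) and 1.82-fold (0.621 to 4.81). Mcam, an adhesion molecule on the tip list, was 1.53-fold (1.02 to 2.26) and 1.74-fold (1.12 to 2.65). Igfbp3 was higher in arterial-marked cells as well, as given above. At E13.5 and E15.5, 8 and 4 of the tip-marked cells were also arterial-marked.

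Against the lymphatic endothelial cells that the rule set aside, the values stand side by side without a test. At E15.5 and E18.5 Flt1 was at 207 and 245 CPM in endothelial members and at 0 UMIs in the 38 and 22 lymphatic cells. Aplnr was at 429 and 76.0 CPM against 1 and 0 UMIs. Cldn5 was at 707 and 2678 CPM against 1388 and 1983 CPM, and Egfl7 at 646 and 786 CPM against 843 and 1205 CPM. Kdr, lower in endothelial members at E18.5, was at 188 and 241 CPM in lymphatic cells, and Klf4, higher in endothelial members, went from 210 to 651 CPM in them as well.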

How the data were processed

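Single-cell RNA was captured in 10x Genomics 3' v2 libraries, 1 for each of 4 stages. Each deposited table holds raw UMI counts for genes by barcodes, whole numbers without normalisation. Per the submitters' processing notes, the authors used Cell Ranger, Seurat 2.3.4 and mm10. The Cell Ranger version and how barcodes were called as cells: not given in the sources used here. The tables held 1997 to 2884 barcodes per library.

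Kept cells had 200 genes or more and no more than 10% mitochondrial UMIs. No doublet caller was run, so members marked for another class may be doublets or hold free RNA, and values without them were computed. UMIs were summed over each group of cells and divided by totals that leave out cartilage, globin and mitochondrially encoded genes (CPM). Ratios have exact conditional binomial 95% intervals, shares Clopper-Pearson intervals and levels Poisson intervals. Each UMI is treated as independent, which makes an interval too narrow when 1 or 2 cells carry most UMIs. A call needed a ratio of at least 2 between stages or classes, or 4 over other cells, an interval that left out 1, and 20 UMIs. The call rule was also run on simulated counts drawn independently for each gene. That simulation held no cells, so it cannot show how the rule acts when few cells carry most UMIs. A ratio to 0 UMIs was bounded with 3 UMIs.

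Named genes were the 20 with the largest smallest-of-3 ratio over other cells, up to 12 in each direction between stages, up to 12 per class, and members of 40 gene lists. The members, lists and rules were chosen with earlier results of these data known, and the split at 8 endothelial genes after seeing the values. Analysis used Python 3.11.15, numpy 2.4.6, scipy 1.17.1, pandas 2.3.3 and matplotlib 3.10.9. Positions came from GENCODE (GRCm38) and promoters from RefSeq. Alternatives changed the choice of members, the limits, the totals, the centring, the weight of cells and the thinning depth.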

Additional observations from a re-analysis of the deposited data

How the results depend on the processing

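The share of members was 4.72%, 3.85% and 2.31% at E13.5, E15.5 and E18.5. With at least 3 UMIs of the pair it was 3.84%, 3.08% and 1.31%, with at least 1 it was 11.1%, 10.2% and 11.03%, and with a UMI of Cdh5 required it was 3.76%, 2.81% and 0.945%. Without members marked for another class it was 3.80%, 2.85% and 1.31%, and with 8 of 30 endothelial genes 3.62%, 2.77% and 1.10%. A mitochondrial limit of 5% gave 2.98% at E15.5. At 1 UMI the E18.5 share was no longer the lowest.

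The 32 genes called over other cells in all libraries became 13 with a minimum of 50 UMIs, 112 with none, 53 with Cdh5 required, and 53, 51 (centred) and 49 (unmarked cells) in endothelial members. The counts with Cdh5 required and in endothelial members also left lymphatic cells out of the other cells, which the 32 did not. Those rises therefore mix a change of members with a change of the cells compared against. For E15.5 over E13.5, 114 higher and 194 lower became 44 and 76 at a 3-fold limit, 39 and 67 with 50 UMIs, and 257 and 406 with every cell weighted alike. The higher count was 215 with no UMI minimum and 69 with Cdh5 required. In endothelial members it was 67, the lower count was 113 with centring, and unmarked cells gave 75 and 120. Arterial-marked cells gave 52 and 62, and the others 67 higher. For E18.5 over E15.5, 416 higher and 497 lower became 194 and 290 at 3-fold, 186 and 269 with 50 UMIs, and 655 and 835 with equal weights. The higher count was 751 with no UMI minimum and the lower count 314 with Cdh5 required. In endothelial members the lower count was 255 with centring and 264 in unmarked cells. Arterial-marked cells gave 210 and 190, and the others 172 and 190. The 393 arterial genes became 213 after thinning, 212 without members of another class and 193 in endothelial members. The 233 tip genes became 105, 114 and 96.

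Gene ratios over all members were also recomputed under the alternatives. The fold limit and the UMI minimum act on calls only. Their 165 ratios at 3-fold, at 50 UMIs and with no minimum could therefore only stay the same. In endothelial members, 83 ratios moved out of the interval found over all members and 80 stayed. Of 165 gene ratios under 2455 alternatives, those fixed ones included, 1825 stayed within their interval, 623 moved and 7 reversed. Without centring, those 7 were Prkx at 0.462 (E15.5 over E13.5) and Zfp36 at 0.854 in arterial-marked cells, Adamts1 at 0.393, Ehd4 at 0.795, Ptprb at 0.589 and Smad7 at 0.883 in the others, and Cd74 at 0.846 without leukocyte-marked members; the cause was not tested. Leaving out a replicate was not possible with 1 library per stage. No paired analysis was possible because each stage is a single library. The 21 endothelial members at E18.5 limit every value there.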

Other observations

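Some gene lists not described above also held calls between E15.5 and E18.5 in endothelial members, with folds relative to the median gene. Of 9 genes that signal to mural cells, Jag1, Efnb2 and Dhh were higher and Apln and Esm1 lower, while Pdgfb, which recruits pericytes, had 34, 22 and 2 UMIs at E13.5, E15.5 and E18.5 and was not called. Of 9 genes compared on the list named for cell cycle exit, Txnip was 3.70-fold (2.28 to 5.90), Btg1 2.59-fold (2.04 to 3.28) and the cyclin-dependent kinase inhibitor gene Cdkn1a 4.14-fold (2.59 to 6.54) higher. Ccnd1, a cyclin gene on this list and not a gene of exit, was 3.52-fold lower (1.57 to 9.78). In other kept cells Txnip went from 53.3 to 161 CPM and Ccnd1 from 101.3 to 60.4 CPM, the same directions.

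Of 7 genes compared on the list named for glucose and amino acid carriers, Slco3a1, Slc9a3r2 and Slc3a2 were higher (Slc9a3r2 not without centring) and 0 lower. The list median was 0.75 on the log2 scale. Not every gene on this list encodes such a carrier, and Slco3a1 and Slc9a3r2 do not. Slc3a2, the heavy chain of amino acid exchangers, was 4.28-fold higher (2.74 to 6.61). Of 7 early embryonic growth genes, the imprinted gene Peg10 was lower, with 121, 66 and 1 UMIs, and the summed level of the list was 363 and 186 CPM at E15.5 and E18.5 beside 388 and 190 CPM in other kept cells. Erythroid markers summed to 118 CPM in endothelial members at E18.5 against 3.62 CPM in other kept cells, from 14 UMIs of which 13 lay in 1 cell.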
